A study of Mus musculus with 2 samples.

Results

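The barcodes described here were picked from single-cell RNA sequencing (scRNA-seq) of mouse cerebral cortex by the transcripts they held. Droplets label the RNA of a captured cell or nucleus with a shared barcode, and a random tag, the unique molecular identifier (UMI), lets each captured molecule be counted once. A barcode was a member when it held at least 3 UMIs of Tshz2, at least 1 of Vwc2l, at least 1 of Slc17a7, at most 1 of Gad1 and Gad2 together and at most 4 of Hs3st4. It also had to reach 1000 UMIs and 500 genes, with at most 10% mitochondrial UMIs. This rule found 390 members among 9540 control barcodes and 349 among 8113 WMI barcodes, 739 of 17653 in all. The rule was written for near-projecting neurons, but the other markers of those neurons were for the most part not raised in the members, so they are called Tshz2 Vwc2l barcodes here.

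Near-projecting neurons are deep-layer glutamatergic neurons of the cortex whose axons stay close to home, in contrast to the long axons of extratelencephalic and corticothalamic neurons. They are known for Tshz2, a zinc finger transcription factor, and Vwc2l, a secreted protein with von Willebrand factor C domains. Slc17a7 loads glutamate into synaptic vesicles, Gad1 and Gad2 make GABA, and Hs3st4, an enzyme that modifies heparan sulfate, is best known in layer 6.

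The data were 1 control library and 1 library from a model of preterm white matter injury (WMI), both from C57BL/6 mice that were 2 weeks old. For WMI, the labels describe ligation of the right common carotid artery on postnatal day 7 with 1 h of hypoxia, and sampling of the ligated side on postnatal day 14, with the same side taken from control mice. The paper's methods differ from the labels: they give younger mice, longer hypoxia and dissociated cells in place of nuclei, and they speak of several replicates per group where 1 library each was analysed here. How many mice were pooled and their sex are not given in the labels, and both groups had 1 library, so no difference between control and WMI has a replicate check.

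The rule's minimums select for depth, and members had 1665 to 40366 UMIs in control (median 7858.5) and 1820 to 51099 in WMI (median 10920). Other excitatory barcodes, which held Slc17a7 and at most 1 UMI of Gad1 and Gad2 but were not members, had medians of 5677.5 and 6242 UMIs. They are named by these genes and were not neurons alone. By the clusters described below, 53.1% of them in control and 49.3% in WMI lay in clusters low in the neuronal gene Rbfox3. The sets of named kinds used for comparison were deeper than members in control, with medians of 10284 UMIs (corticothalamic), 12390 (Fezf2 Bcl11b) and 10098.5 (upper-layer), and had 11651.5, 9566 and 9182 in WMI. Summed over members, 3641193 control and 4269655 WMI UMIs lie behind the values below. The libraries stood apart before any gene of interest was considered. The median mitochondrial share of members was 0.0504% in control and 0.385% in WMI. Xist, the RNA of the inactive X chromosome in female cells, was found in 2 control members (0.513%) and 258 WMI members (73.9%), so that the sex of the mice and the condition cannot be told apart. The libraries shared 36 barcode sequences, and no sequence was a member in both.

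RNA that is free in the suspension can enter any droplet, so a UMI of Tshz2 or Vwc2l in a barcode need not come from its cell. Levels below are CPM, the UMIs of a gene scaled to 1e6 UMIs of the set. Barcodes with at least 5 UMIs of a microglia gene list held 358 CPM of Tshz2 in control and 540 CPM in WMI. The list summed to 183 and 552 CPM in other excitatory barcodes. In clusters of the excitatory barcodes, described below, it reached 3298 CPM in a WMI cluster of 697 barcodes. It was at 241 CPM in a WMI cluster of 529 led by Aldh1a3 and Ccbe1, with a median depth of 10587 UMIs. Deep neuronal barcodes can thus also reach 5 UMIs of the list. The microglia-list set is therefore not free of neurons, and its levels are not a measure of free RNA alone. Members held 1489 and 1677 CPM of Tshz2, and other excitatory barcodes 525 and 636 CPM. Of the microglia-list barcodes, 61.8% of 516 in control (median depth 3594.5 UMIs) and 62.2% of 2482 in WMI (4262.5 UMIs) held at least 1 UMI of Tshz2, and 26.2% and 28.0% held Vwc2l. Among all excitatory barcodes the shares were 70.6% and 66.9% for Tshz2 and 31.6% and 34.8% for Vwc2l, at median depths of 5932 and 6477.5 UMIs. A single UMI of either gene was therefore found in barcodes of both kinds, and 14 control and 86 WMI members were themselves among the microglia-list barcodes.

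The members' own counts of Tshz2 (chromosome 2, 169633013 to 170071816, GRCm38, plus strand) were widely spread, with members at every count from 3 to 25 UMIs in both libraries. In control they ran from 3 to 70 UMIs with a median of 5, and in WMI from 3 to 152 with a median of 8. Exactly 3 UMIs, the fewest the rule accepts, were found in 125 control members (32.1%) and 94 WMI members (26.9%), while 105 (26.9%) and 123 (35.2%) held at least 20. Vwc2l (chromosome 1, 70725715 to 70885397, plus strand) was sparse. Exactly 1 UMI was found in 224 control members (57.4%) and 166 WMI members (47.6%), and the highest counts were 34 and 31. These genes chose the members, so their levels are a description and not a result.

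**Figure D1:**
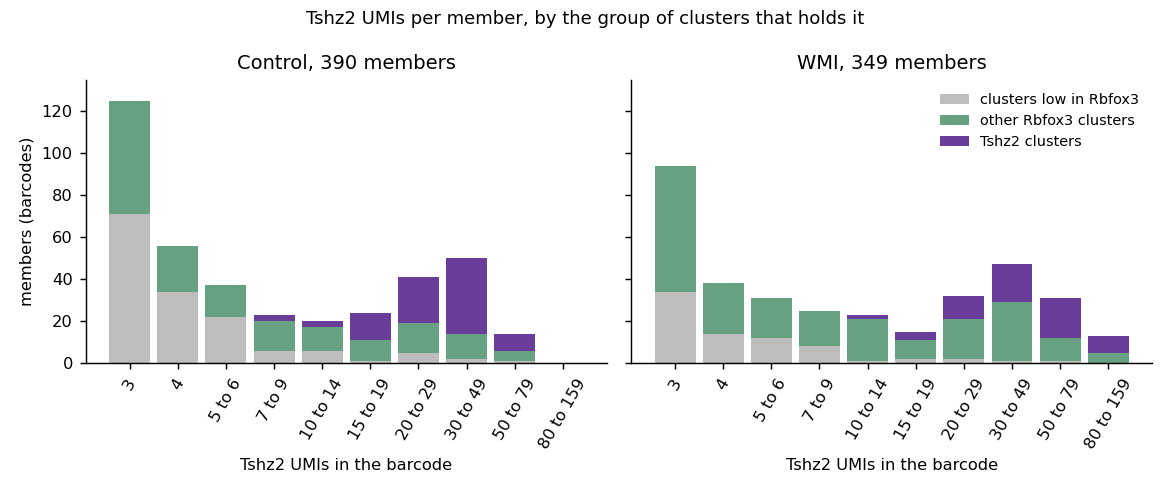
Tshz2 UMIs per member (x axis, bins of UMIs) against the number of members (y axis) in the control and WMI libraries. Colours give the group of clusters that holds the member. The bins differ in width, the most members in a bin are at the minimum of 3 UMIs in both libraries, and the members of clusters low in Rbfox3 sit mostly at 3 and 4 UMIs.

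Many barcodes lay just outside the rule. With all other conditions met, 244 control and 157 WMI barcodes held 2 UMIs of Tshz2 in place of 3. No UMI of Vwc2l was found in 675 and 510 barcodes that met the rest, which is more than the number of members. Hs3st4 was above 4 UMIs in 216 and 269 barcodes, of which only 27 and 20 held exactly 5, whereas 44 control and 27 WMI members held exactly 4. A further 99 and 82 barcodes lacked Slc17a7, and 39 and 21 held 2 or more UMIs of Gad1 and Gad2.

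The condition on Hs3st4 left out the barcodes that carried the other near-projecting markers. When the excitatory barcodes of each library were clustered without the 6 genes of the rule, 1 cluster per library stood highest in Slc17a8, the vesicular glutamate transporter VGLUT3 (chromosome 10, 89574020 to 89621253, minus strand). It had 89 barcodes in control and 77 in WMI, with 4050 and 4412 CPM of Tshz2, 833 and 1138 CPM of Vwc2l and 2110 and 1922 CPM of Hs3st4. Only 2 and 4 of its barcodes were members. Another 57 and 66 met every condition except that on Hs3st4.

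In the members, Slc17a8 was at 3.30 CPM in control (12 UMIs in 10 members) and 2.34 CPM in WMI (10 UMIs in 6 members), against 4.09 and 2.77 CPM in other excitatory barcodes and 70.0 and 55.8 CPM in the Slc17a8 cluster. Slc17a8 chose the cluster, so its level there is a description and not a result. Trhr, the receptor of thyrotropin-releasing hormone, was at 3.02 and 15.7 CPM in members and at 20.6 and 52.4 CPM in that cluster. Tle4, a transcriptional corepressor, was lower in members than in other excitatory barcodes in both libraries. It was at 72.5 and 72.8 CPM in members, 169 and 170 CPM in other excitatory barcodes and 763 and 802 CPM in the Slc17a8 cluster. Fezf2, a regulator of deep-layer identity, was at 6.87 and 11.2 CPM in members, 13.3 and 14.1 CPM in other excitatory barcodes and 57.6 and 75.9 CPM in the cluster. Rapgef3 (6.04 and 8.43 CPM in members, 45.3 and 60.2 CPM in the cluster) and Nxph3 (3.84 and 2.58 CPM, 15.4 and 27.9 CPM) lay in the same order, and Sla2 had 1 UMI in the members of each library.

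Lypd1 and Cpne7 lay in another order in both libraries, and Crym in WMI only, where members were close to other excitatory barcodes. Lypd1, which encodes a prototoxin that binds nicotinic receptors, was at 46.1 CPM in control members and 85.5 CPM in WMI members, above other excitatory barcodes (36.7 and 51.5 CPM) and below the cluster (195 and 244 CPM). Cpne7, a calcium-binding copine, was at 45.6 and 95.3 CPM in members and 44.3 and 46.9 CPM in the cluster. Crym, which binds thyroid hormone, was at 11.5 and 24.4 CPM in members, 22.0 and 23.3 CPM in other excitatory barcodes and 39.1 and 44.6 CPM in the cluster. Summed over the 10 markers outside the label, members held 199 and 319 CPM, other excitatory barcodes 299.7 and 371 CPM and the Slc17a8 cluster 1251 and 1411 CPM. The sum includes Slc17a8, which chose the cluster. Of the 10, 4 passed the filter of 20 CPM used below, and none of these was 2-fold higher than in other excitatory barcodes in both libraries, as were 0.0949% of all genes that passed.

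**Figure D2:**
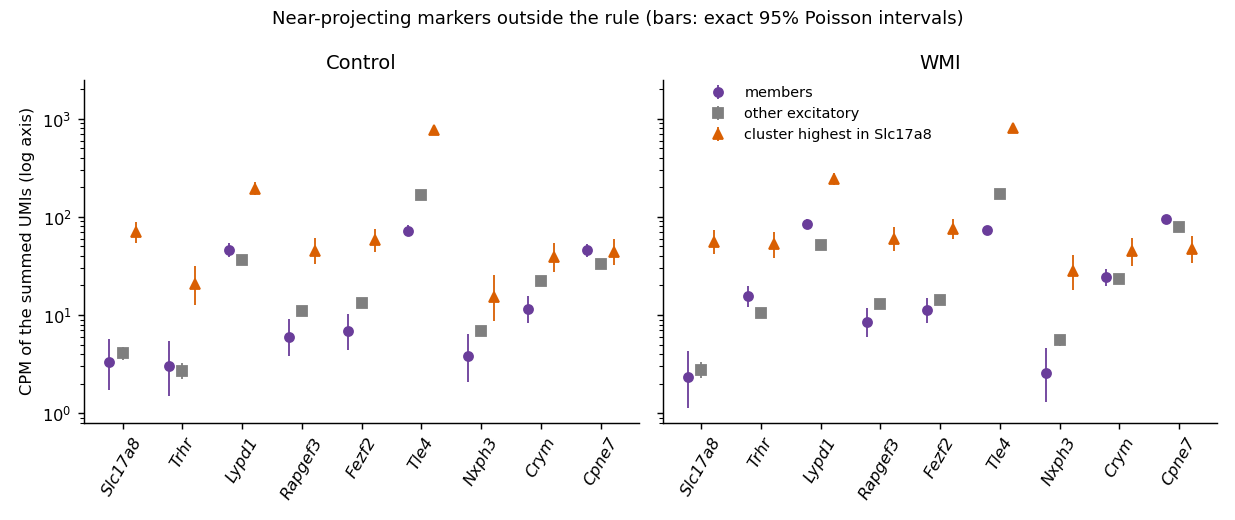
CPM of 9 near-projecting markers that the rule did not use (y axis, log scale) in members, other excitatory barcodes and the cluster highest in Slc17a8, for control (left) and WMI (right). Bars are exact 95% Poisson intervals and cover counting error only. Members lie below other excitatory barcodes for Tle4 (72.5 against 169 CPM in control), and the cluster lies above both for every gene shown but Cpne7. Slc17a8 chose the cluster, so its place there was set in advance.

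The members did not form 1 group of barcodes. They were found in 19 of 21 control clusters and 19 of 23 WMI clusters, and the cluster with the most held 83 of the 390 control members (21.3%) and 81 of the 349 WMI members (23.2%). In control, the largest sets were 83 members in a cluster of 258 barcodes led by Pappa, Gm26883 and St8sia2 with 4003 CPM of Tshz2, 75 in a cluster of 721 led by Otof, Aldh1a3 and Ccbe1 with 247 CPM, and 74 in a shallow cluster of 1402 (median 2919 UMIs) led by Dlx6os1, Gad2 and Igf1 with 492 CPM of Tshz2 and 2502 CPM of the interneuron list. In WMI they were 81 in a cluster of 529 led by Aldh1a3, Klhl1 and Ccbe1 with 475 CPM of Tshz2, 79 in a cluster of 346 led by 9330185C12Rik and Ano2 with 634 CPM, and 38 in a cluster of 138 led by Pappa, Npsr1 and St8sia2 with 4503 CPM. Clusters led by Aldh1a3 and Ccbe1 and by Pappa and St8sia2 were thus among the 3 largest sources of members in each library, and a control cluster of 101 led by 9330185C12Rik held 35. WMI also had a cluster led by Cpa6, Trabd2b and Glra3, with 20 members among 55 barcodes and 3909 CPM of Tshz2. Whether a control cluster corresponds to it was not tested.

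**Figure D3:**
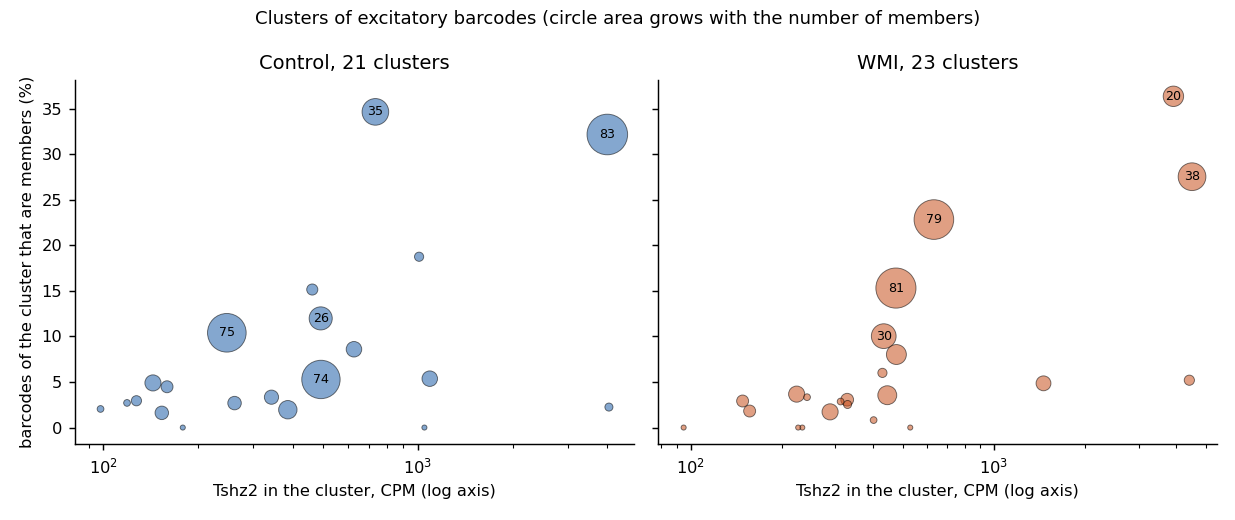
Each circle is a cluster of excitatory barcodes, placed by its Tshz2 level in CPM (x axis, log scale) and the percentage of its barcodes that are members (y axis), in control (left) and WMI (right). Area grows with the number of members, which is printed for clusters with at least 20. Members are spread over clusters from 247 CPM of Tshz2 and below to 4003 CPM and above.

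Members were divided by their cluster into 3 sets, with limits chosen after the clusters were seen. Clusters with at least 2000 CPM of Tshz2 held 85 control members (21.8%, exact 95% interval 17.8 to 26.2%) and 62 WMI members (17.8%, 13.9 to 22.2%), with medians of 31 and 42 UMIs of Tshz2. Other clusters with at least 350 CPM of Rbfox3, the gene of the neuronal marker NeuN, held 157 (40.3%, 35.4 to 45.3%) and 212 (60.7%, 55.4 to 65.9%), with medians of 5 and 7 UMIs. Clusters lower in Rbfox3 held 148 (37.9%, 33.1 to 43.0%) and 75 (21.5%, 17.3 to 26.2%), with medians of 4 and 4 UMIs. The intervals of the libraries did not overlap for the other neuronal clusters, which held more of the WMI members, and for the clusters low in Rbfox3, which held fewer, and they overlapped for the Tshz2-rich clusters. Other excitatory barcodes differed the same way by less, with 42.3% (41.1 to 43.6%) in control and 46.1% (44.7 to 47.6%) in WMI in the other neuronal clusters and 53.1% (51.8 to 54.4%) and 49.3% (47.8 to 50.7%) in those low in Rbfox3. These intervals, like all others here, cover counting error within 1 library per condition, and variation between mice was not measured. Barcodes predicted to be doublets, that is, 2 cells under 1 barcode, made up 15.6% of control and 11.7% of WMI members, against 8.23% and 6.68% of all barcodes that passed the filter.

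The genes furthest above other excitatory barcodes in the members of the Tshz2-rich clusters included receptor, adhesion and noncoding genes, some of them found in few members. Chrm2, the muscarinic M2 acetylcholine receptor, was at 367 CPM in control and 426 CPM in WMI, against 104 and 94.5 CPM in other excitatory barcodes, with a UMI in 64 of 85 control and 56 of 62 WMI members. The serotonin receptor Htr4 was at 108 and 143 CPM against 33.9 and 48.7 CPM, in 33 and 27 members. Netrin-G2 (Ntng2), an axonal adhesion protein, was at 263 and 254 CPM against 73.9 and 86.5 CPM. Tshz3, a relative of Tshz2, was at 261 and 288 CPM against 94.4 and 89.3 CPM. St8sia2, which adds polysialic acid to neural cell adhesion molecule, was at 41.6 and 84.6 CPM against 9.93 and 15.2 CPM, in 16 and 22 members, with log2 ratios of 2.07 (1.48 to 2.60) and 2.48 (2.07 to 2.86). Npsr1, the neuropeptide S receptor, was at 49.9 CPM in 8 of 85 control members and 241 CPM in 20 of 62 WMI members. In these members Fezf2 was at 1.39 and 13.9 CPM and Bcl11b at 16.6 and 20.8 CPM. The 85 and 62 members include 2 and 4 from the Slc17a8 cluster, which was higher in Fezf2 and held 224 and 267 CPM of Npsr1. These genes were listed after the clusters were seen, and clusters were built on the same cells, so the values are a description.

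The members of the other neuronal clusters had smaller differences from other excitatory barcodes. The long noncoding RNA 6530403H02Rik was at 331 and 557 CPM against 131 and 238 CPM. Epha3, a receptor for ephrin-A guidance cues, was at 322 and 368 CPM against 149 and 171 CPM. Fibronectin (Fn1), an extracellular matrix protein, was at 44.1 and 51.7 CPM against 12.6 and 22.5 CPM, and the cation channel subunit Trpc5 at 284 and 362 CPM against 164 and 214 CPM. Genes of other lineages were low in this set, such as the oligodendrocyte gene Mobp (11.9 and 4.61 CPM against 70.7 and 47.0 CPM) and Dock2 of immune cells (1.90 and 11.8 CPM against 21.4 and 74.9 CPM). The set was limited to clusters rich in Rbfox3 and the comparison was not. That these genes were low was thus partly set by the choice of clusters and is a description.

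The members of clusters low in Rbfox3 held higher sums of oligodendrocyte lineage, astrocyte, microglia and interneuron genes than the other sets, though few members held some of the genes. Pdgfra, the precursors' growth factor receptor, was at 88.7 CPM in control and 128 CPM in WMI against 21.2 and 29.0 CPM in other excitatory barcodes, with a UMI in 29 of 148 control and 28 of 75 WMI members. Sox6 was at 685 and 1182 CPM against 158 and 309 CPM, and Lhfpl3 at 1317 and 2062 CPM against 330 and 529 CPM. Bnc2, a gene of meningeal fibroblasts, was at 427 and 181 CPM, with log2 ratios of 4.88 and 4.04, from 8 and 7 barcodes. Summed over the oligodendrocyte lineage list of 9 genes, this set held 1280 CPM in control and 774 CPM in WMI, while the Tshz2-rich set held 262 and 221 CPM and the other neuronal set 171 and 189 CPM. The astrocyte list summed to 1592 and 2095 CPM, against 506 and 438 CPM in the other neuronal set, and the microglia list to 296 and 915 CPM, against 89.2 and 226 CPM. The 12 interneuron genes summed to 2512 and 2156 CPM in this set, against 539 and 446 CPM in the other neuronal set, although each member has at most 1 UMI of Gad1 and Gad2. The part of other cells, of doublets or of free RNA in this set was not tested.

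Against other excitatory barcodes as a whole, members differed in few genes. Of 6322 genes with a mean of at least 20 CPM, 6 were at least 2-fold higher in members in both libraries (0.0949%) and 10 at least 2-fold lower (0.158%), and the genes of the rule, Tshz2, Vwc2l and Hs3st4, are among these 16. With the mean of per-cell CPM in place of summed UMIs, 7 genes were higher and 34 lower, and these held 5 of the 6 and 3 of the 10. The median log2 ratio over the genes was -0.0073 in control, over the 6321 that had more than 3 UMIs in a set, and -0.070 in WMI. Since the rule chose the barcodes on the same counts, these shares are given as a description.

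Gm26883, a long noncoding RNA on the strand opposite to Tshz2 and inside its locus (chromosome 2, 169633646 to 169888503), was at 344 CPM in control members and 265 CPM in WMI members, against 134 and 106 CPM in other excitatory barcodes, with log2 ratios of 1.36 (1.28 to 1.45) and 1.33 (1.23 to 1.42). Whether the counting used strand is not given in the sources used here, so reads of this RNA and of Tshz2 may not be told apart. Gm26883 was higher still in barcodes that met the rule except for Hs3st4 (621 and 380 CPM) and in the Slc17a8 cluster (1119 and 757 CPM). Fn1 was at 35.2 and 48.7 CPM against 12.6 and 22.5 CPM, and was found in 57 control and 73 WMI members. St8sia2 was at 20.3 and 36.5 CPM against 9.93 and 15.2 CPM, in 47 and 79 members. Bnc2 was at 97.8 and 22.0 CPM, with log2 ratios of 2.75 and 1.00, but 3 barcodes held 84.3% of its 356 control UMIs and 92.6% of its 94 WMI UMIs. Without the clusters low in Rbfox3, or with stricter thresholds on Tshz2 or Vwc2l, the Bnc2 ratio turned below 0 in at least 1 library.

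The next genes were under 2-fold in at least 1 library. Npsr1 had log2 ratios of 1.67 in control and 0.92 in WMI, with 60.9% of its control UMIs in 3 members. Barcodes that met the rule except for Hs3st4 held more Npsr1, 78.3 and 71.5 CPM against 44.2 and 55.7 CPM in members. Epha3 was found in 257 of 390 control and 239 of 349 WMI members and had ratios of 1.04 (0.94 to 1.13) and 0.91 (0.82 to 0.99). Trabd2b, a metalloprotease that inactivates Wnt proteins, had ratios of 0.85 and 1.23, and Rspo2, a secreted enhancer of Wnt signals, 0.62 and 0.73. The extracellular matrix and matrix-modifying genes Adamts2, Adamtsl1, Ccbe1 and the integrin subunit Itga8 lay between 0.61 and 0.78. The glycine receptor subunit Glra3 had ratios of 0.80 and 0.62, and Unc13c, which primes synaptic vesicles, 0.64 and 0.70. The remaining named genes, Megf11, Cdc14a, Tmtc4, Gm30382, 6530403H02Rik and E030026E10Rik, lay between 0.71 and 1.09. In the members of Tshz2-rich clusters alone, the ratios of 6530403H02Rik, Adamts2 and Megf11 were below 0 in both libraries, and those of Cdc14a in control and Adamtsl1 in WMI were below 0 as well.

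Several of the genes lower in members are known from layer 6. Tle4 and Foxp2, transcription regulators of corticothalamic neurons, had log2 ratios of -1.22 and -1.22, and of -0.97 and -1.56. The serotonin receptor Htr1f was at 73.3 and 41.9 CPM in members against 180 and 145 CPM, and the cell adhesion gene Cdh18 at 335 and 267 CPM against 783 and 645 CPM. Hs3st5, of the same enzyme family as Hs3st4, had ratios of -1.02 and -1.09. Rai14 and Gm20752 had ratios of -1.55 and -1.14, and of -1.63 and -1.02. Cnksr3 (-1.48 and -2.13), Ly86 (-1.06 and -1.41), a gene of myeloid cells, and Pamr1 (-1.07 and -1.18) completed the 10 lowest genes outside the rule. Of the 9 of these that were past the fold in both libraries, 3 were still past it with per-cell CPM and 2 with members of at most 15000 UMIs, although the ratios of all 10 stayed below 0 in both. The rule removes barcodes rich in Hs3st4, and the corticothalamic barcodes with them, from the members but not from the comparison.

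**Figure D4:**
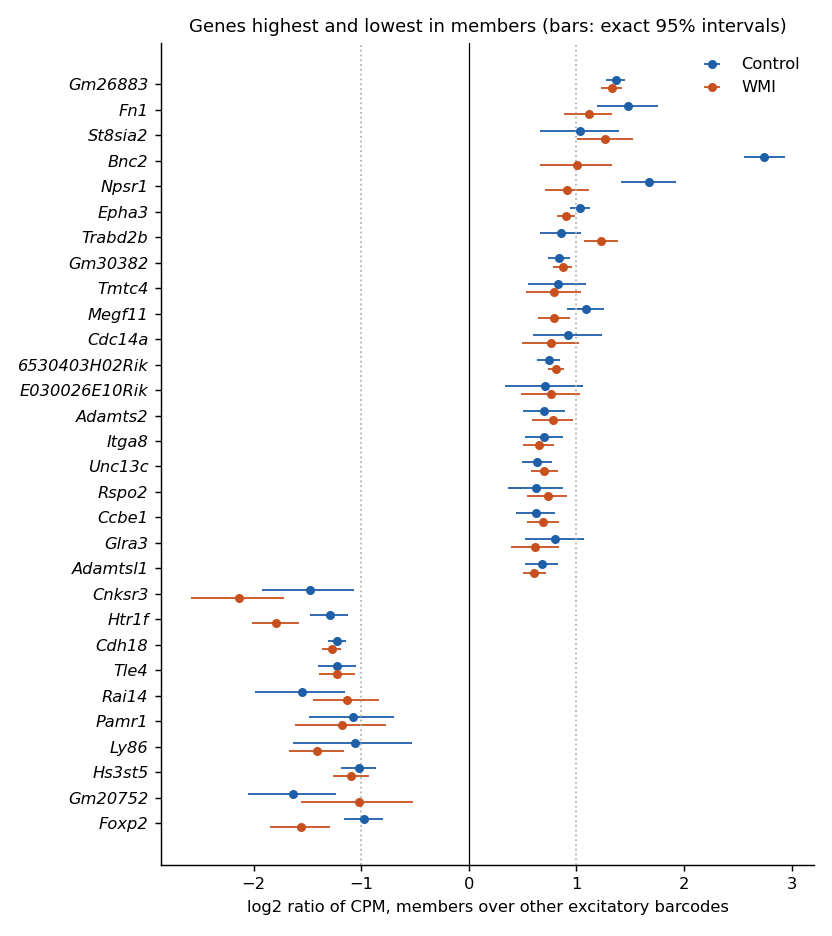
log2 ratio of CPM in members over other excitatory barcodes (x axis) for the 20 highest and 10 lowest genes outside the rule, in control and WMI. Bars are exact 95% intervals for counting error, and dotted lines mark log2 ratios of -1 and 1. The Bnc2 ratio is 2.75 in control and 1.00 in WMI, and the other genes above 0 lie between 0.61 and 1.67.

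Genes of synaptic transmission are given with the same background of 0.0949% higher and 0.158% lower, at which few or no genes of any such list would be counted. None of the 16 AMPA, kainate and delta receptor genes that passed the filter was 2-fold apart in both libraries, and their median log2 ratios were 0.0070 in control and -0.023 in WMI. Grik3, a kainate receptor subunit, was at 92.6 and 67.7 CPM in members against 163 and 153 CPM. None of the 4 NMDA receptor genes, 6 metabotropic glutamate receptor genes, 16 GABA and glycine receptor genes, 40 potassium channel genes and 23 sodium, calcium and HCN channel genes was 2-fold apart in both libraries. Cacna2d3, an auxiliary calcium channel subunit, was at 1251 and 988 CPM in members against 873 and 678 CPM. Slc17a6, which encodes the glutamate transporter VGLUT2, was at 22.5 and 25.3 CPM against 13.4 and 16.6 CPM.

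Among 53 axon guidance genes that passed, none was 2-fold apart in both libraries. The semaphorins Sema3e and Sema5b were lower in members, with log2 ratios of -0.71 and -1.13 and of -0.92 and -1.02, and the midline receptor Robo3 was higher, with 0.53 and 0.62. Of 19 cadherin genes only Cdh18 was past the fold in both libraries. Of 42 transcription factor genes of the cortex, Tle4 was 2-fold lower in both libraries and, beside Tshz2, which the rule fixed, none was 2-fold higher. Over all genes the shares were 0.0949% higher and 0.158% lower, so that counts of 0 or 1 in lists of these sizes say little about a list. The upper-layer and layer 4 to 5 list had medians of 0.06 and -0.02 over 9 genes, with Rorb, the layer 4 regulator, at -1.68 and -0.89 and Cux2 of the upper layers at 0.23 and 0.24. Ntf3, the neurotrophin-3 gene, did not pass the 20 CPM filter and was at 19.2 and 32.3 CPM in members against 8.70 and 11.5 CPM.

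Members were also set against 3 kinds of excitatory barcodes with at most 2 UMIs of Tshz2. The corticothalamic set held at least 5 UMIs of Hs3st4 and 1 of Foxp2, the Fezf2 Bcl11b set at least 1 of each of these genes, and the upper-layer set at least 2 of Cux2 and none of Fezf2, the latter sets with at most 4 of Hs3st4. Epha3 was higher in members than in the upper-layer set, with log2 ratios of 0.68 in control and 0.61 in WMI. It was also higher than in the Fezf2 Bcl11b set, with 1.22 and 1.01, and than in the corticothalamic set, with 1.53 and 0.66. Cdh18 was at ratios of 0.21 and 0.40 to the upper-layer set, 0.25 and -0.16 to the Fezf2 Bcl11b set, and -2.58 and -3.10 to the corticothalamic set. Htr1f was at 0.54 and -0.084 to the upper-layer set, -2.54 and -3.08 to the Fezf2 Bcl11b set, and -2.57 and -3.36 to the corticothalamic set. The Fezf2 Bcl11b set had 53 barcodes in each library, so its values rest on fewer UMIs.

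Over 10 sums (members, other excitatory barcodes and the 3 comparison sets, in both libraries), the genes whose log2 CPM was most like Tshz2 were Gm26883 (Pearson r 0.964), Adamts6 (0.943), Cdc14a (0.936), Pou2f1 (0.925) and Tcf4 (0.912). Those most like Vwc2l were Tiam1 (0.957), Anapc4 (0.917), Sobp (0.913), Epha3 (0.911) and Itga8 (0.902). The rules set Tshz2 itself in 8 of the 10 sums, at 3 UMIs or more in members and at most 2 in the comparison sets, and Vwc2l in the 2 sums of members, and the sums of a library share its depth and free RNA. The values therefore describe these sums and are no finding on the genes.

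Members made up 6.31% of excitatory barcodes in control (390 of 6180, exact 95% interval 5.72 to 6.95%) and 7.17% in WMI (349 of 4866, 6.46 to 7.93%). Of all barcodes that passed the filter, they were 4.09% (3.70 to 4.50%) and 4.30% (3.87 to 4.77%). The rule counts UMIs, and WMI barcodes were deeper. After each barcode was thinned to 3000 UMIs, which left out 2845 control and 1947 WMI barcodes that were shallower, 120 of 3095 excitatory barcodes met the rule in control (3.88%, 3.22 to 4.62%) and 109 of 2582 in WMI (4.22%, 3.48 to 5.07%). The intervals overlapped in each of these comparisons. They also overlapped with at least 2 UMIs of Tshz2 in place of 3, where the shares of excitatory barcodes were 10.3% (9.51 to 11.04%) and 10.4% (9.55 to 11.3%). They did not overlap under 4 other versions of the rule, nor among clusters with at least 350 CPM of Rbfox3, with the higher share in WMI. In those clusters the shares were 8.19% (7.23 to 9.24%) and 10.7% (9.51 to 11.9%). With at least 5 UMIs of Tshz2 the shares of excitatory barcodes were 3.38% (2.95 to 3.86%) and 4.46% (3.90 to 5.08%), and with at least 2 of Vwc2l they were 2.69% (2.30 to 3.12%) and 3.76% (3.24 to 4.33%). With no limit on Hs3st4 they were 9.81% (9.08 to 10.6%) and 12.7% (11.8 to 13.7%), and with at most 1 UMI of it 3.06% (2.64 to 3.52%) and 4.32% (3.76 to 4.92%). These versions were not thinned to equal depth, and whether the deeper WMI barcodes set the difference was not tested.

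Between WMI and control members, 10622 genes had at least 50 UMIs over both libraries. Of these, 192 were at least 2-fold higher in WMI (1.81%) and 160 at least 2-fold lower (1.51%). In other excitatory barcodes 241 of the same genes were 2-fold higher (2.27%) and 76 were lower (0.715%), and 114 and 41 genes were past the fold in both sets. The median log2 ratio in members was -0.037, with a 5th percentile of -0.64 and a 95th of 0.62.

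The genes furthest above control in WMI members were mostly X-linked and myeloid genes. Ddx60, Gfap and the channel gene Ano2, described further on, were also among the 10 highest. Xist was at 0.55 CPM in control and 793 CPM in WMI members, and its antisense RNA Tsix at 0.55 and 50.8 CPM. Spp1, which encodes osteopontin and is made by activated microglia, had 0 UMIs in control members and 193 in 143 WMI members, at least 54.9-fold higher when 3 UMIs are set for the control sum. Gpnmb, another gene of activated myeloid cells, had 1 and 75 UMIs, Lyz2 of macrophages had 0 and 58 (at least 16.5-fold), and Mpeg1 6 and 87. Ddx60 (2 and 55 UMIs), an interferon-induced gene, and Apobec1 (5 and 51 UMIs) followed. A single WMI member held 23 of the 55 UMIs of Ddx60, and 33 of the 55 were in clusters low in Rbfox3. Gfap, an astrocyte filament gene, was at 2.20 and 41.7 CPM, and in WMI at 214 CPM in members of clusters low in Rbfox3 against 20.4 CPM in the other neuronal set and 9.71 CPM in the Tshz2-rich set. The astrocyte list as a whole did not follow Gfap. Of its 8 genes, 2 were 2-fold higher in WMI members, against 1.81% of all genes, and the median log2 ratio was 0.029. The list summed to 759 CPM in control and 623 CPM in WMI members.

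Most of these genes were as far apart in other excitatory barcodes, where Spp1 was at 0.18 and 63.1 CPM and Gpnmb at 0.30 and 37.8 CPM. That comparison set held barcodes of clusters rich in microglia genes, and their part in these levels was not tested. The log2 ratios of Gfap and Mpeg1 were 4.25 and 3.63 in members and 3.85 and 3.25 in other excitatory barcodes. Against the 1.81% of all genes that were higher, 4 of 7 microglia genes with enough UMIs in members were 2-fold higher in WMI (C1qa, C1qb, Tyrobp and Cx3cr1), and the list summed to 138 CPM in control and 305 CPM in WMI members. Of the 7 genes of the activated myeloid list, 4 had at least 50 UMIs over both libraries, and all 4 were 2-fold higher. A gene such as Spp1 (0 and 193 UMIs) or Gpnmb (1 and 75 UMIs) passes this filter only through its WMI UMIs. The count was thus partly set by the filter and is a description. Apoe, the most abundant gene of the activated myeloid list, went from 74.4 to 534 CPM, a log2 ratio of 2.84 (2.66 to 3.03). Each of the 349 WMI members held at least 1 UMI of these lists, while 61 control members held none, so members free of these genes could not be compared. Their part in other differences was not tested.

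Mitochondrially encoded genes were higher in WMI members for 10 of 11 measured genes, against 1.81% of all genes. Cytochrome b (mt-Cytb) was at 300.2 CPM in control and 1384 CPM in WMI members, and mt-Nd3 at 20.3 and 161 CPM. The median log2 ratio of the 11 was 1.96, and 1.92 in other excitatory barcodes. Of 72 ribosomal protein genes, 1 was past the fold, close to the 1.81% of all genes, with a median of 0.33. In a list of RNA quality and nuclear RNA genes, 3 of 10 were 2-fold higher in WMI members. Their median log2 ratio was 0.66, and 0.85 in other excitatory barcodes.

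The genes furthest below control in WMI members included oligodendrocyte genes and the fibroblast genes Bnc2 and Slc47a1. The myelin genes Mobp (63.4 and 10.3 CPM) and Mog (23.9 and 4.45 CPM), and Aspa (14.6 and 1.87 CPM), which encodes the N-acetylaspartate-cleaving enzyme of oligodendrocytes, were lower, as was Prr5l (20.3 and 2.11 CPM). These UMIs were concentrated: 3 barcodes held 58.0% of the control UMIs of Mobp, 63.2% of those of Mog, 64.2% of those of Aspa and 89.2% of those of Prr5l. Bnc2 (97.8 and 22.0 CPM) and Slc47a1 (15.1 and 2.11 CPM) had 84.3% and 83.6% of their control UMIs in 3 barcodes. A gene such as Prr5l (74 and 9 UMIs) passes the filter of 50 UMIs only through its control UMIs. The place of such genes among the lowest was thus partly set by the filter and is a description. The fibroblast list as a whole was not lower. Of its 3 genes with at least 50 UMIs, 1 was 2-fold higher in WMI members and 0 were 2-fold lower. The list summed to 50.5 CPM in control and 55.0 CPM in WMI members. Of 9 oligodendrocyte lineage genes, 4 were 2-fold lower in WMI members (Mog, Mag and Cspg4 among them), against 1.51% of all genes. The median log2 ratio of the 9 genes was -0.54 in members and 0.33 in other excitatory barcodes. In members of the other neuronal clusters the log2 ratios were -0.70 for Mog (-2.27 to 0.85, 9 and 8 UMIs), -0.45 for Mag and -0.26 for Cspg4, and -1.36 (-2.42 to -0.36, 25 and 14 UMIs) for Mobp, which was past the fold there too. Aspa had 5 and 1 UMIs in these members and Prr5l 2 and 4, a ratio of 0.47 (-2.33 to 3.94).

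Gm26906, by contrast, was spread over many members. This RNA was found in 136 of 390 control members and 40 of 349 WMI members, at 61.0 and 9.84 CPM, with a log2 ratio of -2.63 (-3.14 to -2.15) and -2.45 in other excitatory barcodes. E530011L22Rik (12.4 and 2.11 CPM, in 38 and 9 members), Erg (18.1 and 3.98 CPM) and 6330411D24Rik (23.3 and 5.62 CPM) were the other genes among the 10 lowest.

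**Figure D5:**
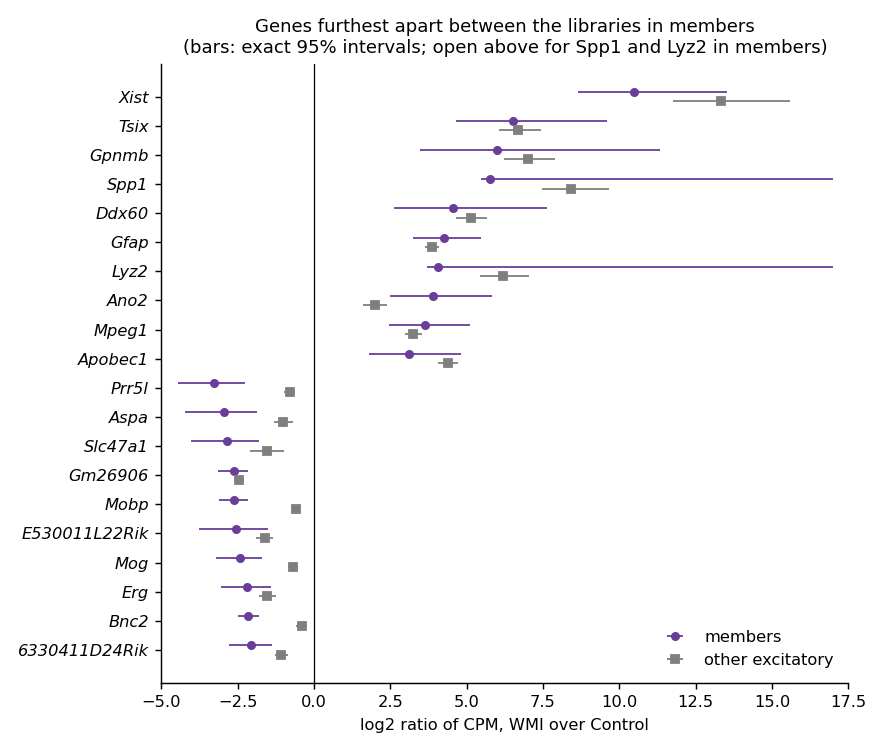
log2 ratio of CPM in WMI over control (x axis) for the 10 highest and 10 lowest genes in members, shown for members and for other excitatory barcodes. Bars are exact 95% intervals for counting error, and the points of Spp1 and Lyz2 in members are lower bounds. The genes above 0 lie above 0 in both sets, and Prr5l, Mobp, Mog and Bnc2 lie further below 0 in members than in other excitatory barcodes.

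Some neuronal genes also differed between the libraries. Ano2, a calcium-activated chloride channel, was at 1.10 CPM in control (4 UMIs) and 16.4 CPM in WMI members (70 UMIs in 28 members), 14.9-fold higher, against a log2 ratio of 1.99 in other excitatory barcodes. It was among the leading genes of the WMI cluster with 79 members. Trhr was at 3.02 and 15.7 CPM, with ratios of 2.38 (1.45 to 3.45) in members and 1.95 in other excitatory barcodes. The transcription factor Nr2f2 was at 6.87 and 26.2 CPM, with 1.93 and 1.67, and the guidance receptor Nrp2 at 37.9 and 82.9 CPM, with 1.13 and 1.66. Crym was at ratios of 1.08 (0.55 to 1.63) in members and 0.08 in other excitatory barcodes, and Cpne7 at 1.06 and 1.26. Trhr, Crym and Cpne7 were the 3 of 7 near-projecting markers with at least 50 UMIs that were 2-fold higher, against 1.81% of all genes. A gene such as Trhr, at 3.02 CPM in control members, passes this filter mainly through its WMI UMIs. The count was thus partly set by the filter and is a description. Foxp2 was lower, at 73.3 and 26.0 CPM, with -1.50 (-1.83 to -1.17) in members and -0.91 in other excitatory barcodes. The neurofilament gene Nefm was at 9.89 and 3.51 CPM, with -1.49 (-2.47 to -0.59). Because the members came from different clusters in the libraries, a different mix and a different level per cell cannot be told apart in these sums. Within the other neuronal clusters the ratios were 3.93 for Ano2, 1.91 for Trhr, 1.14 for Crym, -0.71 for Foxp2 and -2.19 for Nefm. The mix differed within this set as well. A cluster led by 9330185C12Rik held 35 of its 157 control members, and the one led by 9330185C12Rik and Ano2 held 79 of its 212 WMI members. Foxp2 was at -1.46 (-2.38 to -0.61) in the Tshz2-rich clusters and -1.41 (-1.97 to -0.89) in those low in Rbfox3, below 0 in each of the 3 sets.

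With 1.81% of all genes higher and 1.51% lower, few or no genes past the fold would be counted in lists of the following sizes, and the counts say little about a list. None of 17 AMPA, kainate and delta receptor genes, 5 NMDA receptor genes, 7 metabotropic glutamate receptor genes, 17 GABA and glycine receptor genes, 43 potassium channel genes and 25 sodium, calcium and HCN channel genes with at least 50 UMIs was past the fold in members. Their median log2 ratios were 0.03, 0.11, 0.09, 0.02, -0.11 and -0.08. Among 14 hypoxia response genes, Slc2a1, the glucose transporter GLUT1, was higher (17 and 43 UMIs, log2 ratio 1.11, 0.27 to 2.01) and the angiogenic factor Vegfa lower (60 and 33 UMIs, -1.09, -1.75 to -0.46). None of 6 immediate-early genes and 8 stress and chaperone genes was past the fold. Of the endothelin system, a vasoactive peptide pathway that the study addressed, 3 of 7 genes had 50 UMIs or more, and none was past the fold, with a median of -0.27.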

How the data were processed

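The authors deposited 1 table of UMI counts per library, made with Cell Ranger 6.1.1 per the file headers, with no normalization. The labels name mm9 and Seurat, whereas all 55450 gene IDs match GENCODE M21 (GRCm38), the build of the coordinates given here. All deposited barcodes numbered 10288 in control and 8354 in WMI, with 66470806 and 60568639 UMIs.

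UMIs were summed over the barcodes of a set and scaled to CPM. With 1 library per group no test was made. Ratios have exact conditional binomial intervals, levels exact Poisson intervals and shares Clopper-Pearson intervals, all at 95%, for counting error only, and a sum of 0 was set at 3 UMIs. A difference was counted at a log2 ratio of 1, with a mean of at least 20 CPM for members against other excitatory barcodes (in both libraries) and 50 UMIs for WMI against control. Ratio intervals were tested on simulated data.

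Excitatory barcodes of each library were clustered (2000 variable genes, 30 principal components, 15 neighbours, Leiden at resolution 1, leidenalg 0.10.2) without the genes of the rule, Xist, Tsix and mitochondrial genes. Doublets were scored against simulated ones, at 0.8% per 1000 barcodes, and kept except in an alternative. Python 3.11.15, numpy 2.4.6, scipy 1.17.1 and scikit-learn 1.9.0 were used.

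Named genes were the 20 highest and 10 lowest for members against other excitatory barcodes by the library nearer to no difference, the 10 highest and 10 lowest for WMI against control, the 5 most like Tshz2 and Vwc2l, all near-projecting markers, and up to 4 genes of each list. Other genes named were chosen after their values were seen. The members and lists were chosen with earlier results of these data known. Some genes are not reported here.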

Additional observations from a re-analysis of the deposited data

Results flagged for a closer look

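Among the barcodes that failed the filter on depth, genes or mitochondrial UMIs, 1 of 241 in WMI and 0 of 748 in control met the gene conditions of the rule. It drew attention because it lies in data that no comparison used.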

How the results depend on the processing

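Counts of genes past the fold moved with the filter, the threshold and the choice of members. Higher and lower in members (6 and 10) became 3 and 5 with a stricter filter, 1673 and 292 with none, 12 and 25 with Tshz2 of at least 5, 10 and 46 with Vwc2l of at least 2, and 0 and 1 at a log2 ratio of 1.5. The lower genes became 34 with per-cell CPM, which held 3 of the 10, and 3 with at most 15000 UMIs, all among the 10. Higher and lower in WMI (192 and 160) became 97 and 59 with a stricter filter, 1252 and 1457 with none, and 71 and 31 at a log2 ratio of 1.5. The lower genes became 84 with Vwc2l of at least 2, 87 with at most 15000 UMIs and 250 without WMI members holding Xist. Shares of excitatory barcodes (6.31% and 7.17%) became 3.88% and 4.22% when thinned, 10.3% and 10.4% with Tshz2 of at least 2, 3.38% and 4.46% with at least 5, 2.69% and 3.76% with Vwc2l of at least 2, 9.81% and 12.7% with no limit on Hs3st4, and 3.06% and 4.32% with at most 1. At resolution 0.5 the cluster with the most members held 30.8% and 29.2%.

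Alternatives chosen after seeing the data used clusters. Clusters with at least 350 CPM of Rbfox3 gave 16 lower genes and shares of 8.19% and 10.7%. Members of clusters with at least 2000 CPM of Tshz2 gave 65 higher and 129 lower genes, and 63 and 76 in WMI, which held 20 of the 192 and 10 of the 160. The Bnc2 log2 ratio turned to -2.84 in WMI with Tshz2 of at least 5, to -2.38 in control and -5.11 in WMI with Vwc2l of at least 2, and to -1.47 in WMI in Rbfox3 clusters. In Tshz2-rich clusters the ratios in control and WMI were -3.39 and -1.40 for Bnc2, -0.39 and -0.22 for Megf11, -1.27 and -2.30 for 6530403H02Rik, and -1.18 and -1.47 for Adamts2, with -1.34 for Cdc14a in control and -1.20 for Adamtsl1 in WMI. The cause was not tested. Members with no UMI of the microglia or activated myeloid lists gave no value, since 0 WMI members were left. No paired analysis was possible because each group had 1 library.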
